A study of Mus musculus with 2 samples.

Results

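The chemokines Cxcl9, Cxcl10 and Cxcl11 and their receptor Cxcr3, together with the chemokine Cxcl16 and its receptor Cxcr6, were followed across the cells of mouse tumours. The 6 genes were chosen by measured values of these data, namely their levels and shares of cells in 4 cell classes and along a ranking of the keratin-positive cells, so their differences between those classes and along that ranking are descriptions with no test. Of the 6 genes, 5 are among the 31053 genes of the count matrix, and Cxcl11 was not analysed here. The tumours came from a study titled for inhibitors of ACSS2, the enzyme that makes acetyl-CoA from acetate, in triple negative breast cancer. A single pool of cells from 3 vehicle and 3 ACSS2i samples, labelled as tumor tissue of the strain "NGS mouse", was run on 1 lane as an expression library and a library of antibody tags, 6 in number and named D0, D1, D4, U2, U3 and U4, and the series' design text names Bmal1 status, which no label of the pool gives. The labels name no cell line, age or sex, give no tumour model, and do not say which tag belongs to which arm, so vehicle and ACSS2i could not be compared and each tag is given as a sample of unknown arm.

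Cxcl9, Cxcl10 and Cxcl11 are small secreted proteins whose genes are switched on by interferons, above all interferon gamma from T and NK cells, through factors that include the IRF family, with NF-kB adding to Cxcl10. They draw in activated T and NK cells that carry CXCR3, a receptor coupled to inhibitory G proteins. Cxcl16 differs from them: it is made as a membrane protein with a chemokine head, acts as a scavenger receptor on macrophages and dendritic cells, is released by the proteases ADAM10 and ADAM17, and binds CXCR6, a receptor of effector and tissue-resident T cells.

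The pool held 9747 barcodes, of which 7919 were kept after filters on genes, mitochondrial UMIs and multiple tags. A UMI (unique molecular identifier) marks 1 captured transcript, and levels are CPM, counts per 1000000 gene UMIs of a class. The classes were set by UMI sums, not by clustering. Krt8/Krt18 cells, taken as tumour cells by the rule, had at least 3 UMIs of the keratin genes Krt8 and Krt18 and no Ptprc, and numbered 5212. C1q macrophages (at least 3 UMIs of C1qa, C1qb and C1qc) numbered 396, Cd3 T cells (at least 2 UMIs of Cd3d, Cd3e and Cd3g) 730, and NK cells (at least 1 UMI of Ncr1 or Klrb1c and no Cd3) 121. Barcodes meeting more than 1 rule (51) were set aside, and 1409 met none. The keratin cells did not carry other epithelial genes: Epcam was at 0.00717 CPM, Cdh1 at 0.0430, Krt7 at 0.0215 and Krt19 at 0.0717, while Sox9 was at 760 CPM and the matrix gene Dcn at 2580. All 11 macrophage markers were found in C1q macrophages (18781 CPM summed, against 9.20 in Krt8/Krt18 cells), all 8 T cell markers in Cd3 T cells (3736 against 3.00) and all 6 NK markers in NK cells (1686 against 0.731). Each of these lists includes the genes that set its class, so part of each sum was fixed by the rule. The immune classes shared some markers. In NK cells the macrophage list was at 3609 CPM, with Fcer1g highest (1868), and the T cell list at 452. In T cells the macrophage list was at 362 CPM and the NK list at 181. Median depth differed widely, at 25137.5 UMIs per Krt8/Krt18 cell, 4326.5 per macrophage, 3359 per NK cell and 1647.5 per T cell, and the tags differed in gene UMIs, with 4423414 for D4 at the low end and 50933086 for U2 at the high end. Both libraries shared 9746 barcodes. Intervals given below are 95% and exact, cover counting error only, and say nothing of the spread between animals.

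Cxcl10 and Cxcl9 lie beside each other on chromosome 5 (GRCm38, GENCODE M21), Cxcl9 at 92321347 to 92328079 and Cxcl10 at 92346638 to 92348889, both on the minus strand and 18558 bases apart. Cxcl16 lies on chromosome 11 at 70453983 to 70459984 (minus), Cxcr3 on chromosome X at 101731535 to 101734269 (minus) and Cxcr6 on chromosome 9 at 123806475 to 123811760 (plus). All 5 are annotated as protein coding, and Cxcl11, on chromosome 5 at 92359544 to 92365485, as a polymorphic pseudogene. RefSeq promoters (build GRCm38.p6) were matched for 4 of the 6 listed genes. The 250 bases before the start site are shown for the neighbours Cxcl9 and Cxcl10 and for Igtp, an interferon-induced GTPase gene used to rank the cells. Cxcl9 and Cxcl10 were at different levels in Krt8/Krt18 cells (12.2 and 200 CPM) and near each other in C1q macrophages (306 and 271). Capitals mark the letters of the motifs searched on both strands: an ISRE, bound by complexes that hold IRF factors (GAAA, any 2 bases, then GAAA), a GAS, an element of interferon gamma response (TTCNNNGAA), the NF-kB consensus, and TATAAA. The windows are chr5:92328080-92328329 for Cxcl9, chr5:92348890-92349139 for Cxcl10 and chr11:58199306-58199555 for Igtp.
Cxcl9: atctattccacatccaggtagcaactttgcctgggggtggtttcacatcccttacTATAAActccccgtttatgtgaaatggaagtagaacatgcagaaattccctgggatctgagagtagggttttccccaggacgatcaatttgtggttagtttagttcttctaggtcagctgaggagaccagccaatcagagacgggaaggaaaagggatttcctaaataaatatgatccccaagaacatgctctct
Cxcl10: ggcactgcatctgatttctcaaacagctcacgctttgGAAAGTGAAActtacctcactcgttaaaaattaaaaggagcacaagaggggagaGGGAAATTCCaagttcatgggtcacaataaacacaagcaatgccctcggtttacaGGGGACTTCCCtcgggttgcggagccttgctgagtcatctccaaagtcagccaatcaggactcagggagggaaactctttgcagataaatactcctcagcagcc
Igtp: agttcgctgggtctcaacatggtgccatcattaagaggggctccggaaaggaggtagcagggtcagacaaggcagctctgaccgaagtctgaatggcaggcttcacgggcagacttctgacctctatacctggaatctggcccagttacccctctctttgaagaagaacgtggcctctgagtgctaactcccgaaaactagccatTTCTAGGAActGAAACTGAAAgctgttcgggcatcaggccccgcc
The Cxcl10 window held an ISRE match (GAAAGTGAAA, first base 213 bases before the start) and 3 NF-kB matches, GGGAAATTCC and the overlapping pair GGGGACTTCC and GGGACTTCCC. In the Cxcl9 window the only match was TATAAA, 195 bases before the start. Igtp held a GAS match (TTCTAGGAA) with an ISRE match (GAAACTGAAA) next to it. The Cxcr3 and Cxcr6 windows held none of the 4 motifs. Over 32851 promoter windows of the same length, 2.98% held the ISRE letters, 7.02% the GAS letters, 7.25% the NF-kB consensus and 12.4% TATAAA. A match is a description of the letters and no evidence of binding. A window without a match may still hold an element, since only these exact letters were searched. No link of the motifs to the levels was tested.

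Cxcl10 was the ligand found in every class at pooled levels less than 2-fold apart. Krt8/Krt18 cells held it at 200 CPM (interval 197 to 202), C1q macrophages at 271 (252 to 291), NK cells at 179 (148 to 216) and Cd3 T cells at 174 (156 to 192). Macrophages were highest, and the counting intervals of NK cells overlapped those of Krt8/Krt18 cells and T cells. The NK level rested in part on 6 cells of D4, which held 53 of the 114 NK UMIs, and it was 104 CPM without D4 and 236 without U2, so the place of NK cells among the classes is not settled by these values. Because the Krt8/Krt18 cells were so many and so deep, they held 27881 Cxcl10 UMIs, against 738 in macrophages, 366 in T cells and 114 in NK cells. Cells thinned to 1000 UMIs each gave like shares with a Cxcl10 UMI: 8.99% of Krt8/Krt18 cells, 10.8% of macrophages, 10.1% of NK cells and 7.74% of T cells (33.9%, 22.2%, 19.8% and 11.2% without thinning). Thinning left out 15, 6, 2 and 45 cells of these classes.

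Among tagged samples Cxcl10 in Krt8/Krt18 cells was 283 CPM in U2, 72.2 in U3, 169 in U4, 202 in D0, 216 in D1 and 350 in D4. U3 was the lowest and D4 the highest, but 1 cell held 50.6% of the D4 UMIs and D4 fell to 174 CPM without it. U4 likewise went from 169 to 99.97 CPM without its highest cell, which held 41.4%. In macrophages Cxcl10 was 195 CPM in U2, 8.26 in U3 (1 UMI in 20 cells), 504 in U4, 359 in D0 and 292 in D1. D4 had only 9 macrophages and is left out of counts over tags, which needed at least 20 cells. Macrophages were above the Krt8/Krt18 cells in 3 of 5 tags, so the ratio of 1.36 (1.26 to 1.46) over all cells did not have the same direction in every sample. In D0, counted among these 3, the direction rested on 1 macrophage that held 58.0% of the Cxcl10 UMIs. Without it D0 macrophages were at 155 CPM, below the D0 Krt8/Krt18 cells at 202, or at 167 without their own highest cell.

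Cxcl10 in T cells was 134 CPM in U2, 36.2 in U3, 417 in D0, 309 in D1 and 685 in D4, and no UMI was found in the 57 T cells of U4, where a count of 0 allows up to 23.3 CPM. T cells were above the Krt8/Krt18 cells in 3 of 6 tags, and the pooled ratio of 0.869 turned above 1 under several other settings, given in the closing section. NK cells were below the Krt8/Krt18 cells in each of the 3 tags with 20 or more NK cells, at 47.5 CPM in U2, 191 in D0 and 138 in D1. Keratin UMIs were also present in lymphocytes: Krt8 plus Krt18 reached 33.9% of the Krt8/Krt18 cell level in T cells, 27.5% in NK cells and 30.7% in macrophages, and 9 of 730 T cells held 50% of their Krt8 UMIs. Carried over at those shares, Cxcl10 of Krt8/Krt18 cells would bring 67.7 CPM to T cells, 55.0 to NK cells and 61.4 to macrophages. The measured levels were 174, 179 and 271 CPM. By level, Cxcl10 was higher in lymphocytes without keratin UMIs. The 626 T cells with no keratin UMI held Cxcl10 at 266 CPM (238 to 297) and the 104 with 1 or more at 49.8 (36.3 to 66.7). In NK cells the same values were 258 CPM over 103 cells and 53.2 over 18. The difference was not particular to Cxcl10: in the same 2 groups of T cells Cxcr6 was 255 and 65.3 CPM, and Cxcr3 42.3 and 11.1. Cxcl9 (12 and 26 UMIs) and Cxcl16 (8 and 7) were not lower in CPM with keratin UMIs. The 104 T cells with keratin UMIs held 903007 gene UMIs, against 1205870 in the 626 without. By share of cells the direction was the other, with a Cxcl10 UMI in 11.02% of T cells without and 12.5% with keratin UMIs, and in 18.4% and 27.8% of NK cells, on overlapping intervals. Keratin stood at 595 CPM in T cells with a Cxcl10 UMI and 301 in those without, and at 309 and 278 in NK cells. The part of RNA carried over from Krt8/Krt18 cells in the Cxcl10 of lymphocytes and macrophages was not tested. T cells with a Cxcl10 UMI (82) had a median depth of 1928 UMIs and those without (648) 1617.5.

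Among the 4 classes Cxcl9 was highest per UMI in macrophages, where U2 held 531 of the 833 UMIs. C1q macrophages held it at 306 CPM (285 to 327), Krt8/Krt18 cells at 12.2 (11.6 to 12.8) and T cells at 18.0 (12.8 to 24.7), and no UMI was found in 121 NK cells, where a count of 0 allows up to 4.72 CPM. The ratio of macrophages to Krt8/Krt18 cells was 25.0 (23.0 to 27.2). At equal depth 12.3% of macrophages and 0.962% of Krt8/Krt18 cells had a Cxcl9 UMI (20.7% and 5.22% without thinning). In T cells all 38 UMIs sat in 3 barcodes, with 12, 23 and 3 UMIs, depths of 12552, 32630 and 20999 UMIs against the T cell median of 1647.5, and 0, 55 and 15 keratin UMIs, so Cxcl9 was not spread over T cells. In Krt8/Krt18 cells a list of 6 macrophage genes reached 0.0578% of its macrophage level, which would bring 0.177 CPM of Cxcl9, against the 12.2 measured. That is a mean over the class, and the part of macrophage RNA in single cells was not tested.

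Per tag, Cxcl9 in macrophages was 783 CPM in U2, 168 in D1, 53.0 in D0 and 51.0 in U4, and none of the 20 macrophages of U3 had a UMI, which allows up to 24.8 CPM. U2 was the highest of these 5 tags. The 9 macrophages of D4 were at 892 CPM (602 to 1274), from 30 UMIs in 2 cells. Macrophages were above the Krt8/Krt18 cells in U2, U4, D0 and D1, and in U3 the direction could not be told, since the 24.8 CPM that a count of 0 allows is above the 0.543 of its Krt8/Krt18 cells. In Krt8/Krt18 cells Cxcl9 was 29.5 CPM in U2, 0.543 in U3 (2 UMIs), 5.44 in U4, 19.1 in D0, 4.38 in D1 and 3.65 in D4. U2 was again highest and U3 lowest, and D0 fell to 8.08 CPM without 1 cell that held 57.9% of its Cxcl9 UMIs.

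Cxcl9 and Cxcl10 thus differed in balance between the classes. Counted in UMIs of this 3' library, there were 16.4 Cxcl10 UMIs for each Cxcl9 UMI in Krt8/Krt18 cells (15.6 to 17.2) and 0.886 in macrophages (0.801 to 0.979). Within Krt8/Krt18 cells of single tags the count was 9.61 in U2, 10.6 in D0, 31.1 in U4, 49.3 in D1, 95.8 in D4 and 133 in U3, where only 2 Cxcl9 UMIs were seen. In macrophages it was 0.249 in U2 (0.204 to 0.301), 1.74 in D1, 6.77 in D0 and 9.88 in U4 (4.77 to 23.7), with 1 Cxcl10 and no Cxcl9 UMI in U3. The pooled macrophage value thus rested on U2 and was 2.01 without it (1.74 to 2.31). In U2, D0, D1 and U4 the Krt8/Krt18 value was above the macrophage value of the same tag, in D0 within the macrophage interval (3.76 to 13.2), and macrophages of U4 were about level with Krt8/Krt18 cells of U2.

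Cxcl16 had the highest ratio of macrophages to Krt8/Krt18 cells among the ligands. C1q macrophages held it at 385 CPM (362 to 409), Krt8/Krt18 cells at 6.78 (6.35 to 7.23), T cells at 7.11 (15 UMIs) and NK cells at 4.72 (3 UMIs), and the last 3 levels overlapped in their intervals. The ratio of macrophages to Krt8/Krt18 cells was 56.8 (51.9 to 62.0). At equal depth 40.0% of macrophages had a Cxcl16 UMI (84.1% without thinning), against 0.770% of Krt8/Krt18 cells, 0.146% of T cells and 0 of 119 NK cells, which allows up to 2.52%. Macrophages held 484 CPM in U2, 297 in U3, 204 in U4, 486 in D0 and 347 in D1. These 5 values were closer together than those of Cxcl9 or Cxcl10, and each was above every Krt8/Krt18 value, which ran from 4.43 CPM (D4) through 5.09 (U4), 5.57 (D1), 5.77 (D0) and 7.60 (U3) to 10.4 (U2). A small set of 50 barcodes outside the 4 classes had at least 2 UMIs of the dendritic cell genes Flt3, Zbtb46, Ccr7 and Xcr1. It held Cxcl16 at 598 CPM (498 to 712) in 35 cells and Cxcl9 at 408 CPM (326 to 504) in 4 cells. Both levels were above those of C1q macrophages, at 385 CPM for Cxcl16 and 306 for Cxcl9.

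In macrophages, the genes with at least 2-fold higher CPM than in Krt8/Krt18 cells were 21.1% of 13648 genes tested, which had 20 or more UMIs over the compared classes. Of the 5 measured members 3 were past that fold (Cxcl9, Cxcl16, and Cxcr3 on 1 UMI). That contrast was used to list them, so nothing is read from this count.

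**Figure D1:**
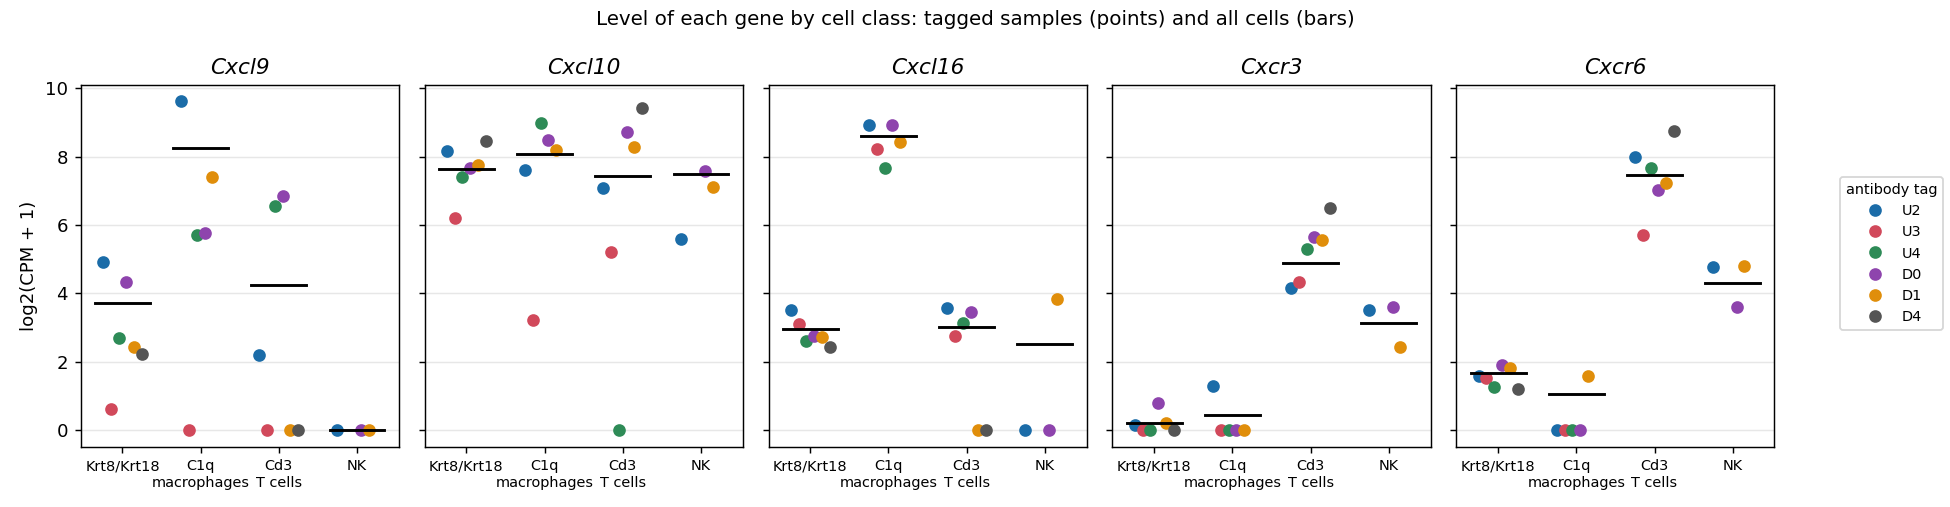
Level of each gene as log2(CPM + 1) in 4 cell classes (points: tagged samples with at least 20 cells of the class; black bars: all cells of the class). Cxcl16 macrophage points (204 to 486 CPM) lie far above all other classes, Cxcl10 points overlap between classes, and Cxcr3 and Cxcr6 points are highest in T cells.

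The chemokine transcripts were unevenly spread over cells. Of 5212 Krt8/Krt18 cells, 33 (0.633%) held 50% of the Cxcl9 UMIs and 110 (2.11%) held 50% of the Cxcl10 UMIs, with up to 679 Cxcl10 UMIs in 1 cell. For Krt8 itself 964 cells were needed. Macrophages were alike in this: 9 of 396 held 50% of Cxcl9 and 10 held 50% of Cxcl10, whereas Cxcl16 needed 84. The median positive macrophage had 4 UMIs of Cxcl9, 3 of Cxcl10 and 3 of Cxcl16. Most macrophages (84.1%) had a Cxcl16 UMI, with at most 17 in a cell. For Cxcl9 and Cxcl10 the shares were 20.7% and 22.2%, with up to 85 and 64 UMIs in a cell, so few cells held most of their UMIs although the median positive cell held few.

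**Figure D2:**
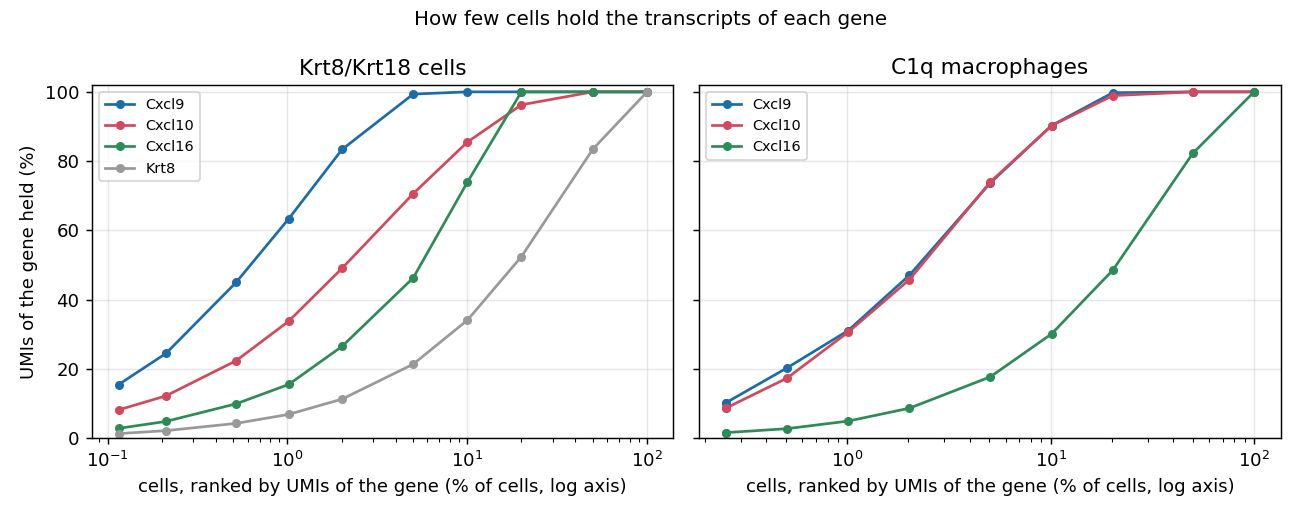
Percent of all UMIs of a gene (vertical axis) held by the given percent of cells with most UMIs of it (log axis), in Krt8/Krt18 cells and C1q macrophages. The Cxcl9 curves rise first (the top 1% of Krt8/Krt18 cells, 52 cells, hold 62.8%), Cxcl10 follows (33.4%), and Cxcl16 in macrophages rises late (4.96% in the top 4 cells).

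Arg1, the arginase gene of many tumour macrophages, split the C1q macrophages into 299 with a UMI and 97 without. Cxcl9 was 347 CPM (323 to 372) in the Arg1-positive cells and 133 (104 to 168) in the others, and Cxcl10 was 290 (268 to 313) and 190 (155 to 231). Cxcl16 was 379 CPM (354 to 406) and 409 (356 to 468), with overlapping intervals. U2 made up 89 of the 299 Arg1-positive cells and held 497 of their 763 Cxcl9 UMIs. The part of U2 in the pooled Cxcl9 difference was not tested. The shares of cells with a Cxcl9 UMI were 20.7% and 20.6%, without thinning and pooled over tags, so they do not compare the groups at equal depth. D1 was the only tag with 20 or more macrophages of both kinds. There Cxcl9 was 200 CPM in 143 Arg1-positive cells and 54.9 in 45 others, Cxcl10 350 and 88.4, and Cxcl16 355 and 317. A single D1 macrophage held 85 of the 251 Cxcl9 UMIs of all D1 macrophages. That cell was Arg1-positive, since the 45 others held 18 Cxcl9 UMIs in all. Median depth was 4721 UMIs in Arg1-positive macrophages and 3135 in the others, and the part of depth in these differences was not tested.

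Krt8/Krt18 cells were ranked by the summed CPM of Iigp1 and Igtp, GTPase genes induced by interferon gamma. The 2398 cells with no UMI of either formed the lowest group, and the others were cut into 4 groups of 703 or 704 cells. Cxcl10 was 50.3 CPM in the cells with no Iigp1 or Igtp UMI and 74.1, 106, 231 and 878 in groups 1 to 4. Cxcl9 was 2.21 CPM and then 5.11, 10.4, 19.3 and 46.3. Cxcl16 was 3.95 CPM and then 6.01, 7.55, 8.56 and 13.8. Over the pooled cells all 3 ligands rose at each step. The ratio of the highest group to the group without was 17.5 for Cxcl10 (16.8 to 18.2), 21.0 for Cxcl9 (17.4 to 25.4) and 3.50 for Cxcl16 (2.92 to 4.19). Of the 12488 genes tested, 2.37% were 2-fold or more higher between these groups, with a median ratio of 0.954. Of the 4 members tested 3 were, the ranking having been used to list them. The receptors had no such order in these cells, with Cxcr6 at 1.95, 2.39, 2.64, 1.40 and 2.89 CPM and Cxcr3 at 13 UMIs without and 3, 2, 3 and 3 UMIs in the ranked groups.

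Ranking within each tag gave Cxcl10 higher in the highest group than in the group without in 6 of 6 tags. No minimum of cells was set here, and the highest groups held 321 cells in U2, 13 in U3, 25 in U4, 22 in D0, 156 in D1 and 21 in D4. The values were 923 against 44.9 CPM in U2, 492 against 32.9 in U3, 1236 against 23.7 in U4, 913 against 34.5 in D0, 788 against 91.8 in D1 and 1957 against 21.2 in D4. The single cells with 679 Cxcl10 UMIs in D4 and 399 in U4 are in those highest groups, which held 940 and 856 Cxcl10 UMIs in all. U3, whose Krt8/Krt18 cells were lowest in Cxcl10 as a whole, had that difference too. The steps between were less regular: Cxcl10 rose at every step in U2, D0 and D4, Cxcl16 in U2 alone, and Cxcl9 in none of the 6 tags. In U4, for example, Cxcl10 was 23.7 CPM in the group without, 21.3, 19.3 and 15.6 in groups 1 to 3, and 1236 in group 4. Cxcl9 was 65.9 against 7.87 CPM in U2, 33.5 against 4.60 in D0 and 8.32 against 0.649 in D1. U4 had 30 Cxcl9 UMIs against 0, at least 42.1-fold higher against a floor of 3 counts in the group without. U3 had 1 UMI against 1 and D4 3 against 8 (6.25 and 4.84 CPM), too few to tell a difference. Cxcl16 had ratios from 2.29 (D4) to 4.52 (U3), with a median of 3.07, all above 1. Those of D4 and U3 rest on 2 against 3 and 5 against 9 UMIs. The intervals of D0 (0.988 to 16.1) and D4 (0.191 to 20.01) reached below 1.

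U2 made up 33.8% of the tagged cells in the group without and 41.0%, 50.2%, 61.7% and 72.0% in groups 1 to 4, and without U2 the Cxcl9 ratio was 11.7. The macrophage list, with 6 genes, was 6.90 CPM in the group without and 11.7 in the highest group. Its part in the result was not tested.

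Depth bears on this ranking, since a shallow cell lacks Iigp1 and Igtp UMIs more easily: the median was 23093.5 UMIs in the group without and 29733, 25409, 25774 and 25349 in groups 1 to 4. After thinning to 5000 UMIs (5109 cells, 103 left out), Cxcl10 was 60.4 CPM in the group without and 226, 200, 570 and 1016 in groups 1 to 4, and Cxcl9 was 4.54 and then 21.2, 9.60, 27.8 and 57.2. Cxcl16 was 4.76 CPM and then 12.1, 8.08, 14.1 and 9.11. None of the 3 ligands then rose at every step, group 2 being below group 1 in each, and only for Cxcl9 and Cxcl10 was group 4 the highest. The Cxcl16 ratio of highest group to group without was 1.91.

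**Figure D3:**
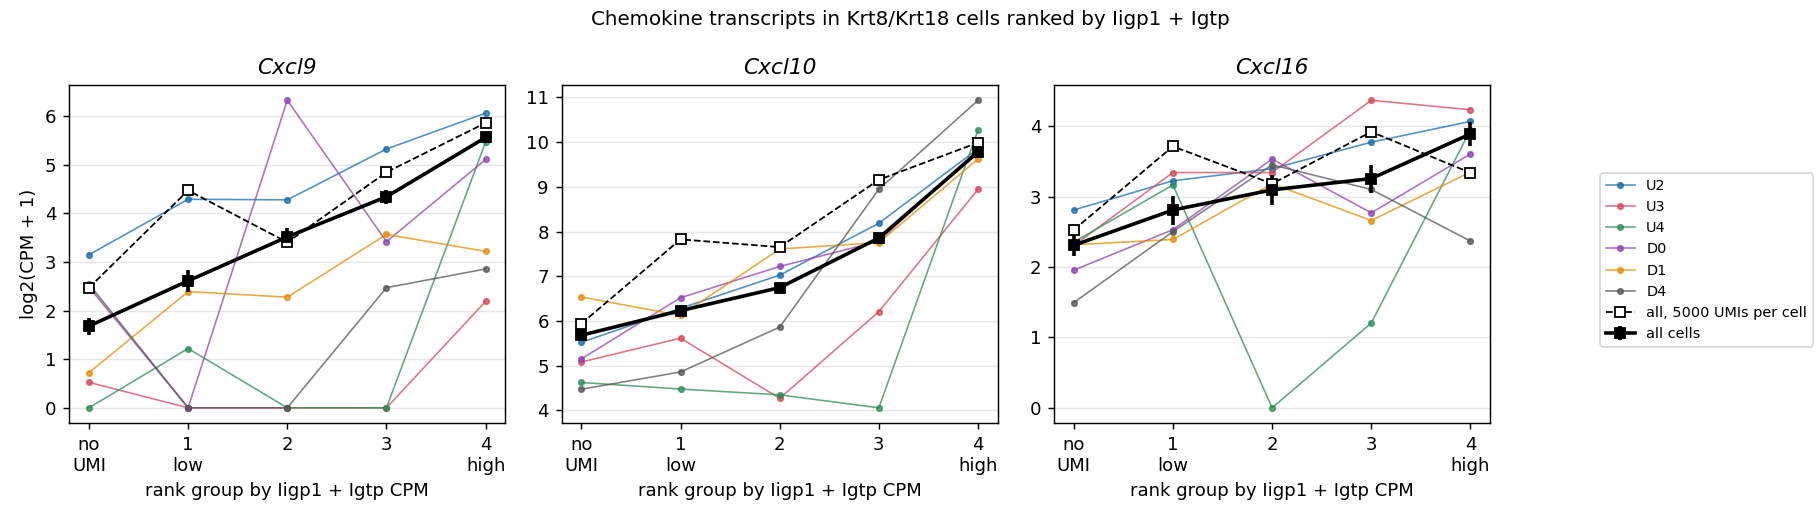
Cxcl9, Cxcl10 and Cxcl16 as log2(CPM + 1) in Krt8/Krt18 cells by rank group of Iigp1 + Igtp CPM (black squares: all cells with 95% counting interval; open squares: cells thinned to 5000 UMIs; coloured lines: single tags, ranked within the tag). Cxcl10 of the highest group (492 to 1957 CPM per tag, 13 to 321 cells) lies above that of the group without (21.2 to 91.8) in every tag, while none of the 3 ligands, once thinned, rises at every step.

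Of the 5109 Krt8/Krt18 cells thinned to 5000 UMIs and pooled over tags, 72 held both Cxcl9 and Cxcl10. Cxcl9 was found in 6.99% of cells with a Cxcl10 UMI (5.51% to 8.72%) and in 1.84% of cells without (1.45% to 2.30%). Read the other way, 49.0% of cells with Cxcl9 had Cxcl10, and 19.3% of those without. Cxcl10 was found in 36.9% of cells with an Iigp1 UMI and 13.9% of cells without. Cxcl16 did not separate by Cxcl10, at 3.79% of cells with it (2.71% to 5.14%) and 3.09% without (2.58% to 3.67%), though by Iigp1 the values were 5.22% and 2.48%. The keratin gene Krt8, as a gauge of capture, gave Cxcl10 in 20.3% of cells with it and 18.6% without.

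Cxcr6 was the more abundant receptor in T cells. Cd3 T cells held it at 174 CPM (157 to 193), NK cells at 18.9 (12 UMIs), Krt8/Krt18 cells at 2.17 (1.93 to 2.43) and macrophages at 1.10 (3 UMIs). The T cell level was 80.1 times that of Krt8/Krt18 cells (68.6 to 93.6) and 9.21 times that of NK cells (5.21 to 18.0). At equal depth 18.4% of T cells, 0.2501% of Krt8/Krt18 cells, 2 of 119 NK cells and 0 of 390 macrophages had a UMI (27.7%, 4.82%, 4.96% and 0.758% without thinning). In T cells Cxcr6 was 252 CPM in U2, 51.5 in U3, 202 in U4, 129 in D0, 149 in D1 and 433 in D4. U3 was lowest, and D4, with 31 T cells, highest. Each of the 6 tags was above its Krt8/Krt18 cells, where Cxcr6 ran from 1.30 to 2.76 CPM. A list of 4 T cell genes reached 0.153% of its T cell level in Krt8/Krt18 cells, which would bring 0.267 CPM of Cxcr6, and 2.17 was measured there. The part of T cell RNA in that level was not tested.

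Cxcr3 was lower, with 61 UMIs in T cells. It was at 28.9 CPM in T cells (22.1 to 37.2), 7.87 in NK cells (5 UMIs), 0.367 in macrophages (1 UMI) and 0.172 in Krt8/Krt18 cells (24 UMIs). T cells were 168 times the Krt8/Krt18 level (103 to 282) and 3.68 times the NK level (1.49 to 11.7). At equal depth 3.50% of T cells and 0.0192% of Krt8/Krt18 cells had a Cxcr3 UMI (7.40% and 0.403% without thinning). Per tag T cells held 16.9 CPM in U2, 19.1 in U3, 38.8 in U4, 49.7 in D0, 46.1 in D1 and 90.1 in D4, from 5 to 17 UMIs each, and each was above its Krt8/Krt18 cells. U2, second highest in Cxcr6, was lowest in Cxcr3. Across T over Krt8/Krt18 cells 24.7% of 13675 genes tested were 2-fold or more higher, and of the members 2 of 5 (Cxcr3 and Cxcr6). For NK over Krt8/Krt18 cells 30.3% were higher and 14.4% lower, and of the members 2 were higher (Cxcr3 and Cxcr6) and 1 lower (Cxcl9), in contrasts the listing had used.

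The receptors differed over T cell subsets, which the listing had not used and which can overlap. Cxcr6 was 238 CPM (208 to 272) in 312 Cd8 cells, 145 (101 to 201) in 76 Cd4 cells, and 78.1 (41.6 to 134) in 63 cells with a UMI of Foxp3, the regulatory T cell factor. Cxcr3 had another order, at 66.1 CPM (33.0 to 118) in Foxp3 cells, 60.4 (33.8 to 99.6) in Cd4 cells and 15.2 (8.32 to 25.5) in Cd8 cells. Cd8 cells were thus highest of these 3 in Cxcr6 and below Cd4 and Foxp3 cells in Cxcr3, beyond the counting intervals of the pooled cells. U2 held 145 of the 219 Cxcr6 UMIs of Cd8 cells. The 373 effector cells (at least 3 UMIs of Nkg7, Gzmb and Ccl5) held Cxcr6 at 199 CPM and Cxcr3 at 34.8.

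Few tags held 20 cells of a subset. Cd8 cells of U2 held Cxcr6 at 321 CPM and Cxcr3 at 19.9, those of U3 45.0 and 8.99, those of D0 188 and 0 (which allows up to 31.3), and those of D1 234 and 10.7. Cd4 cells of U2 held Cxcr6 at 238 CPM and Cxcr3 at 37.6, and those of D1 272 and 84.9. For Cxcr6 the Cd8 and Cd4 intervals overlapped in U2 (271 to 377 and 143 to 372), and in D1 Cd4 cells were the higher (155 to 441, against 147 to 355). In D1 the Cxcr3 interval of Cd4 cells (27.6 to 198) overlapped that of Cd8 cells (0.270 to 59.4), so the Cd4 and Cd8 order of both receptors rests on the pooled cells. T cells of U3 differed in makeup, with 14.8% effector cells, against 41.9% to 74.3% in the other tags. Effector cells of U3 alone had Cxcr6 at 61.4 CPM (22.5 to 134, 6 UMIs), lowest among 5 tags, against 110 in D0 (66.3 to 172), 156 in D1 (112 to 212), 209 in U4 (114 to 351) and 246 in U2. Of these intervals only that of U2 (210 to 287) lay apart from U3. Cxcr3 of U3 effector cells, at 71.6 CPM (28.8 to 147, 7 UMIs), was highest, against 19.4 in U2 (10.3 to 33.2), 29.9 in U4, 46.3 in D0 and 49.6 in D1. Its interval overlapped that of every other tag.

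Cxcr3 UMIs were found in 54 T cells (7.40%) and Cxcr6 UMIs in 202 (27.7%), shares at which few cells with both arise without any link. Of 730 T cells, 13 had UMIs of both, 41 of Cxcr3 alone, 189 of Cxcr6 alone and 487 of neither. At a median of 1647.5 UMIs per cell, a missing UMI does not show that the transcript was absent. Whether the receptors go together or apart was not tested.

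**Figure D4:**
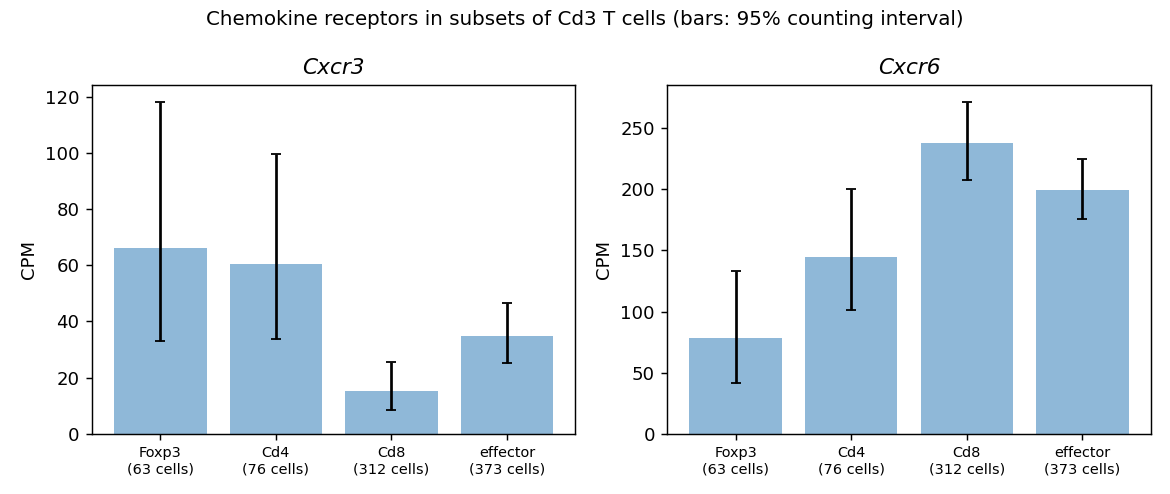
CPM of Cxcr3 and Cxcr6 in subsets of Cd3 T cells, all tags together (bars: CPM; lines: exact 95% counting interval). Cxcr6 is highest in Cd8 cells (238 CPM) and Cxcr3 in Foxp3 and Cd4 cells (66.1 and 60.4 CPM).

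The genes around these chemokines were taken from a list of 41, in 3 sections. On the signalling side, Ifng, the gene of interferon gamma, was at 151 CPM in T cells and 118 in NK cells, with 6 UMIs in all Krt8/Krt18 cells and 1 in macrophages. In T cells Ifng was 235 CPM in U2, 109 in U4, 64.6 in D0, 214 in D1 and 180 in D4, and 15.3 in U3. U3 was lowest in T cell Ifng and in the Cxcl9 and Cxcl10 of Krt8/Krt18 cells, which is a side-by-side of 6 samples and no test. Its T cells also had the lowest share of effector cells. Within effector cells Ifng was 71.6 CPM in U3 (28.8 to 147), 75.3 in D0, 130 in D1 (89.8 to 181), 135 in U4 (61.5 to 255) and 239 in U2 (203 to 279). By these intervals U3 could not be told apart from D0, D1 or U4. Along the Iigp1 and Igtp ranking 7 of the 31 list genes tested were 2-fold or more higher in the highest group and 1 lower, against 2.37% and 2.29% of all genes tested, with a list median ratio of 1.16 against 0.954 over all genes tested. Those higher included Stat2 (8.45 to 45.1), Irf7 (9.001 to 44.0), Irf8 (0.821 to 3.73), Irf9 (19.6 to 48.4), Irf1 (163 to 354) and Socs1 (16.7 to 33.7), which are signal carriers, transcription factors and a feedback inhibitor of interferon signalling. The lower gene was Eomes, with 36 and 5 UMIs. These genes and all others of that comparison share the cells by which the ranking was made.

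In macrophages against Krt8/Krt18 cells, 17 list genes were higher and 2 lower of 34 tested, against 21.1% higher and 11.8% lower over all genes tested, with a list median ratio of 2.15 against 0.996 over all genes tested. The highest ratios were those of Rgs1, a brake on G protein signalling from chemokine receptors (761 against 0.480 CPM), the cytokine gene Tnf (26.0 against 0.136) and Cd69, an activation and retention marker (25.3 against 0.136). The lowest were those of Ackr3, a scavenging chemokine receptor (39.6 against 80.8 CPM), and the syndecan genes Sdc1 (38.5 against 78.1) and Sdc4 (568 against 1095), whose products carry chemokine-binding sugar chains. In T cells 23 were higher and 3 lower of 39 tested, against 24.7% and 11.7% of all genes (list median ratio 3.87, all genes 1.10), with the highest ratios for Ifng, Cd69 (350 CPM against 0.136) and Stat4, a factor of interferon gamma production (131 against 0.0573), and the lowest for Sdc4, Sdc1 and Ackr3 (422, 31.3 and 37.0 CPM). In NK cells 20 were higher and 6 lower of 38 tested, against 30.3% and 14.4% of all genes (list median ratio 3.16, all genes 1.14). For the handling of the ligands, Adam10 was at 70.5 CPM in Krt8/Krt18 cells and 103 in macrophages, and Adam17 at 27.9 and 66.0. Dpp4, the peptidase that trims CXCR3 ligands, was at 28.5 CPM in T cells and at 3 UMIs in all Krt8/Krt18 cells.

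The genes most like each member were sought over 20 points (class by tag, at least 20 cells) among 10479 genes, by Pearson's r of log2(CPM + 1). The points share 1 library and differ in depth, and r is given as a description. Among the 5 genes most like Cxcl16 were the macrophage genes Csf1r (r = 0.931), Msr1 (0.927), Cd33 (0.927) and Alox5ap (0.927). Cxcr6 was most like the T cell genes Cd2 (0.969), Icos (0.969), Ctla4 (0.959), Lat (0.959) and Ets1 (0.957). Cxcl9 had weaker likeness, with 1110008L16Rik first (0.840), then Espl1, Zdhhc1, Nfe2l2 and Fam120a (0.747 to 0.698), and Cxcl10 came nearest to Exoc1 (0.876), Wiz, Mcrip2, Klhl2 and Rdh11 (0.859 to 0.827). Across these points Cxcl9 and Cxcl10 had an r of 0.0878, a value over samples and classes that does not bear on their presence in single cells. Cxcr3, with 79 UMIs over the points, was under the minimum of 200.

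Cells just inside and just outside the class limits were as follows. The 269 cells with exactly 3 keratin UMIs held Cxcl10 at 214 CPM and Cxcl9 at 2.65, and the 268 with 1 fewer held 293 and 10.99. T cells with exactly 2 Cd3 UMIs (114) held Cxcr6 at 55.4 CPM and Cxcr3 at 9.23, and the 83 barcodes with 1 fewer held 38.8 and 15.5. Macrophages at the limit (5 cells) held 6 Cxcl16 UMIs and the 14 barcodes below it 18.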

How the data were processed

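Per the labels' protocols, live cells of the samples were pooled on 1 lane and made into 10x 3' expression and feature barcode libraries. The deposited matrix holds raw UMI counts, whole numbers not normalized, for 31053 genes and 6 antibody tags in 9747 barcodes. Per the submitters' processing notes, Cell Ranger and mm10 were used. The matrix header gives software version 3.1.0. Which gene annotation was counted is not stated. Free RNA was not removed from the counts.

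Filters of 500 genes or more and less than 15% mitochondrial UMIs left 8784 barcodes. Tags were called with HTODemux (Seurat 5.3.0, R 4.3.3; positive quantile 0.99, seed 42), and 865 barcodes with more than 1 tag were removed as doublets. Doublets of 1 tag or of untagged cells remain, and no other doublet caller was run. Of the cells kept, 5590 had 1 tag and 2329 none. No comparison between classes, groups or tags was tested, apart from Dixon's check for a tag far from the others: the 6 tags are 6 samples of unknown arm in 1 pool. CPM intervals are exact Poisson, shares Clopper-Pearson, and ratio intervals exact conditional binomial (Python 3.11.15, scipy 1.17.1, numpy 2.4.6, pandas 2.3.3). A count of 0 was bounded by 3 counts. UMIs are not independent of the animal. Genes with 20 or more UMIs over the compared groups were counted as higher or lower at 2-fold. The steps were checked on simulated counts. The members, gene lists, class limits and named genes were chosen with earlier results of these data known. Named were the 6 members, Iigp1 and Igtp, the 3 highest and 3 lowest ratios of the pathway list in macrophages and T cells, and the 5 genes most like each member with at least 200 UMIs. Pathway genes named for the ranking, and Ifng, Adam10, Adam17 and Dpp4, were chosen after their values were seen. Alternatives were other filters, tag and class rules, scalings, thinning and leaving out each tag. Some genes and a T cell subset are not reported here.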

Additional observations from a re-analysis of the deposited data

Results flagged for a closer look

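Of 17 groups of 4 to 6 tagged samples tested for a sample far from the others, 4 had one. Chance gives about 1 in 20 groups of continuous values, a rate that does not hold where all other tags are at 0, as in both macrophage receptor groups named below. Cxcl9 in C1q macrophages of U2, at 783 CPM, lay far above the next of the 5 tags with 20 or more macrophages (D1, 168). D4, with 9 macrophages, was left out and stood at 892 CPM, from 30 UMIs in 2 cells. The U2 value rested on 531 UMIs in 47 of 106 cells, and without the cell with most UMIs it was 664 CPM. The other 3 rest on 1 to 3 UMIs: Cxcr3 in Krt8/Krt18 cells of D0 (0.753 CPM), Cxcr3 in macrophages of U2 (1.48 CPM) and Cxcr6 in macrophages of D1 (2.01 CPM).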

How the results depend on the processing

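The ratios of macrophages over Krt8/Krt18 cells (3 ligands), of T over Krt8/Krt18 cells (2 receptors) and along the ranking (3 ligands) kept their direction in every alternative run. For macrophages over Krt8/Krt18 cells, Cxcl9, Cxcl10 and Cxcl16 (25.0, 1.36 and 56.8) became 19.5, 1.15 and 45.0 with multiple-tag barcodes kept, 18.2, 1.11 and 48.9 with tagged cells only, and 38.9, 1.65 and 89.2 with immune cells free of keratin UMIs. Keeping barcodes of more than 1 class gave 19.5 for Cxcl9 and 43.8 for Cxcl16, a mean over cells 31.9 and 86.2, and doubled class minimums 1.59 for Cxcl10. Leaving out single tags gave 24.0 to 39.3, 1.26 to 1.86 and 55.1 to 70.3, the highest of each without U2. For Cxcr6 in T over Krt8/Krt18 cells (80.1), a minimum of 1000 genes gave 43.7, multiple-tag barcodes 50.9, doubled minimums 95.7, no keratin 118, a mean over cells 146, and single tags left out 55.1 (U2) to 98.5 (U3). Cxcr3 there (168) was 115 with a minimum of 1000 genes, 116 with multiple-tag barcodes, 246 with no keratin, 282 as a mean over cells, and 141 to 182 without single tags.

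For the highest rank group over the group without, Cxcl9 and Cxcl10 (21.0 and 17.5) became 14.4 and 15.8 with multiple-tag barcodes, 15.3 and 15.2 with tagged cells only, 14.6 and 18.8 as a mean over cells, and 27.4 and 22.1 with 10 groups. Doubled minimums gave 14.6 for Cxcl10. Thinning gave 12.6 for Cxcl9 and 1.91 for Cxcl16 (3.50), which kept its direction. Leaving out single tags gave 11.7 to 22.2 for Cxcl9, 16.7 to 23.2 for Cxcl10 and 2.51 to 3.60 for Cxcl16.

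Ratios near 1 turned. Cxcl10 in T over Krt8/Krt18 cells (0.869) was 1.23 with multiple-tag barcodes, 1.33 with no keratin, 1.20 as a mean over cells, and 0.740 to 1.25 without single tags (above 1 without U2, and 1.08 without U3). Cxcl9 there (1.48, 3 barcodes) was 0.815 with no keratin, 0.2003 as a mean over cells and 0.655 to 7.30 without single tags, lowest without D0. Cxcl10 in NK over Krt8/Krt18 cells (0.898) was 1.51 with multiple-tag barcodes, 1.32 with doubled minimums, 1.29 with no keratin, 1.21 as a mean over cells, and 0.531 (without D4) to 1.48 (without U2).

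Leaving out the cells with most UMIs was chosen after seeing the data. Without the 1 highest cell of each group Cxcl9 in T over Krt8/Krt18 cells was 0.619, and without the top 1% it was 0. Without the top 1%, macrophages over Krt8/Krt18 cells gave 46.2 for Cxcl9 and 63.7 for Cxcl16, Cxcr6 in T cells 109, and the rank groups 123 for Cxcl9 and 22.6 for Cxcl10. The causes of these shifts were not tested. No paired test was run, and classes and rank groups were set side by side within tags as descriptions only. The arms could not be compared because the tags are not tied to them. Few UMIs limit Cxcr3 in all classes.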
